A study of Arabidopsis thaliana with 24 samples.

Results

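AT1G15540, AT1G52790, AT1G52800 and AT1G52820 encode proteins of the 2-oxoglutarate-dependent dioxygenase family, and their ribosome-bound transcripts were abundant in hyl1 roots and nearly missing from Col0 roots. They were chosen by their raised counts in hyl1 among dioxygenase genes, so the difference between hyl1 and Col0 is given here as a description, with no test. They are 4 of the 33602 genes in the count table and 4 of the 23219 genes with enough counts to be tested. AT1G52790, AT1G52800 and AT1G52820 lie within a short stretch of chromosome 1, and AT1G15540 lies elsewhere on the same chromosome.

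Enzymes of this family hold an iron atom at their active site and use 2-oxoglutarate and molecular oxygen to oxidise a small molecule. Plants carry many of them, among them enzymes that make and remove gibberellins, the ACC oxidases that make ethylene, flavonoid enzymes and the AOP enzymes that modify glucosinolate side chains. The substrates of the proteins of these 4 genes are not named in the sources used here. HYL1 binds double-stranded RNA and assists DCL1 when microRNAs are cut out of primary transcripts.

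RNA was taken from anti-FLAG pull-downs of ribosomes from Arabidopsis thaliana roots, collected 6 days after transfer to light and grown at 22 °C on about 20 plates per sample. All plants carried HF-RPL18, a ribosomal protein L18 with a FLAG-containing tag, in a hyl1 or a Columbia-0 (Col0) background, and the hyl1 allele is not given in the sources used here. The 35S promoter or a root layer promoter drove the tag, with ACR4 standing for columella, SCR for endodermis, CO2 for cortex, SHR for stele and WER for epidermis. Each of these 6 lines had 2 hyl1 libraries and 2 Col0 libraries, 24 in all. The labels do not say whether the replicates were separate cultures or whether each line is 1 transformant. The p-values below thus reflect the spread among these libraries alone, and that spread could be technical. In such bulk pull-downs, fewer tagged cells of a type and less RNA per cell cannot be told apart.

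Library totals were 3686938 to 13575556 counts in hyl1 and 2868803 to 12099878 counts in Col0. HYL1 (AT1G09700) had 256 counts over the 12 hyl1 libraries and 902 over the 12 Col0 libraries, and its mean log2 fold change was −1.67 (SE 0.34, edgeR adjusted p = 0.00185). The hyl1 mean of HYL1 was the lower in 6 of 6 lines, and it was called lower within 1 of them (edgeR). Its libraries ran from 0.109 to 9.95 CPM in hyl1 and from 5.34 to 15.4 CPM in Col0, so the genotypes overlapped. The 2 libraries of a group correlated at r = 0.926 to 0.975 across genes in 11 of 12 groups, and at 0.752 in the hyl1 WER group. Hyl1 WER replicate 2 had the fewest genes with a count (22330), and hyl1 WER replicate 1 the next fewest (25475). Results between lines are therefore also given without the WER line. The labels number the libraries of the 35S, ACR4, SCR and CO2 lines in 1 run, and those of the SHR line and of the WER line each in a run of their own. A difference of SHR or WER from the other lines therefore cannot be told apart from its run of library numbers.

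The proteins are 327 (AT1G15540), 310 (AT1G52790), 314 (AT1G52800) and 317 (AT1G52820) residues long in the RefSeq annotation of TAIR10.1, each from 3 coding exons. Family members bind iron through a His, an Asp and a more distant His, and the coding stretch around the first pair is shown because it lies in the annotated protein of all 4 genes. The capitals mark the His, Thr and Asp codons, and the letters are those of the coding strand, 5′ to 3′.

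AT1G15540, chr1:5343218-5343277 (+): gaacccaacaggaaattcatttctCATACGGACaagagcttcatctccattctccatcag
AT1G52790, chr1:19662624-19662683 (−): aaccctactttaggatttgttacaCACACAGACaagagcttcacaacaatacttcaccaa
AT1G52800, chr1:19664784-19664843 (+): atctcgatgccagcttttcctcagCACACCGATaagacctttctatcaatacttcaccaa
AT1G52820, chr1:19669828-19669887 (+): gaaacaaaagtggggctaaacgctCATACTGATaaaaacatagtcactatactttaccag
AT1G80320, chr1:30197398-30197457 (+): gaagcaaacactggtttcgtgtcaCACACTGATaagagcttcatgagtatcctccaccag
AT1G52810, chr1:19667745-19667804 (+): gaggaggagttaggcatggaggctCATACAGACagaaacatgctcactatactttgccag

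In the 4 chosen genes and in AT1G80320, a related gene described below, a second His follows 57 to 58 residues after the first. AT1G52810 lies between AT1G52800 and AT1G52820 and is shown because it differs. Its His-Thr-Asp codons fall in an annotated intron, and its annotated protein of 289 residues, from 4 coding exons, does not hold the motif. The 4 chosen proteins were 38.4% (AT1G15540 and AT1G52820) to 47.7% (AT1G52790 and AT1G52800) identical in pairs. The longest run of coding bases shared between any pair of the 4 was 9 to 16 bases. AT1G15540 and AT1G52800 were 46.7% identical, and the 3 pairs among the clustered genes were 42.9% to 47.7% identical.

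AT1G15540 had 1586 counts in hyl1 and 11 counts in Col0. Its hyl1 libraries held 23.3 and 25.2 CPM (counts per 1000000 on the TMM-scaled library size) in the 35S line, 43.8 and 41.6 in ACR4, 20.9 and 20.2 in SCR, 15.1 and 24.7 in CO2, 10.099 and 7.677 in SHR, and 13.8 and 7.04 in WER. Its Col0 libraries ran from 0 to 0.619 CPM with a median of 0.133, and 5 of the 12 held no count. The lowest hyl1 library stood above the highest Col0 library. Over all libraries the hyl1 level was 165 times the Col0 level, with an exact 95% counting interval of 91.8 to 331 that covers counting error only.

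AT1G52800 held similar amounts, with 1764 counts in hyl1 and 12 counts in Col0. Its hyl1 libraries held 25.4 and 26.8 CPM in the 35S line, 36.3 and 35.6 in ACR4, 20.0 and 20.1 in SCR, 18.8 and 22.1 in CO2, 15.8 and 19.6 in SHR, and 17.1 and 20.8 in WER. Its Col0 libraries ran from 0 to 0.594 CPM with a median of 0.115, and 5 of the 12 held no count. It was the most even of the 4 genes, and hyl1 WER replicate 2 was no lower than hyl1 WER replicate 1. The pooled hyl1 level was 168 times that of Col0 (95% counting interval 95.9 to 326).

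AT1G52820 was the most abundant of the 4 genes, with 5652 counts in hyl1 and 105 counts in Col0. Its hyl1 libraries held 99.2 and 82.4 CPM in the 35S line, 144.9 and 140.7 in ACR4, 82.0 and 72.2 in SCR, 67.6 and 67.8 in CO2, 40.4 and 36.1 in SHR, and 56.8 and 15.6 in WER. Its Col0 libraries ran from 0 to 2.58 CPM with a median of 1.14, and 1 of the 12 held no count. The groups did not overlap, and the pooled hyl1 level was 61.5 times that of Col0 (95% counting interval 50.7 to 75.3).

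AT1G52790 had the smallest ratio, with 1265 counts in hyl1 and 77 counts in Col0. Its hyl1 libraries held 23.1 and 19.1 CPM in the 35S line, 33.2 and 35.8 in ACR4, 14.0 and 18.0 in SCR, 16.2 and 19.1 in CO2, 17.5 and 9.67 in SHR, and 6.96 and 0 in WER. Its Col0 libraries ran from 0 to 1.59 CPM with a median of 0.886, and 2 of the 12 held no count. Hyl1 WER replicate 2, with no count of this gene, is the library through which the groups overlap. A count of 0 there allows up to 0.310 CPM (3 counts). The pooled hyl1 level was 18.8 times that of Col0 (95% counting interval 14.9 to 23.9).

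**Figure D1:**
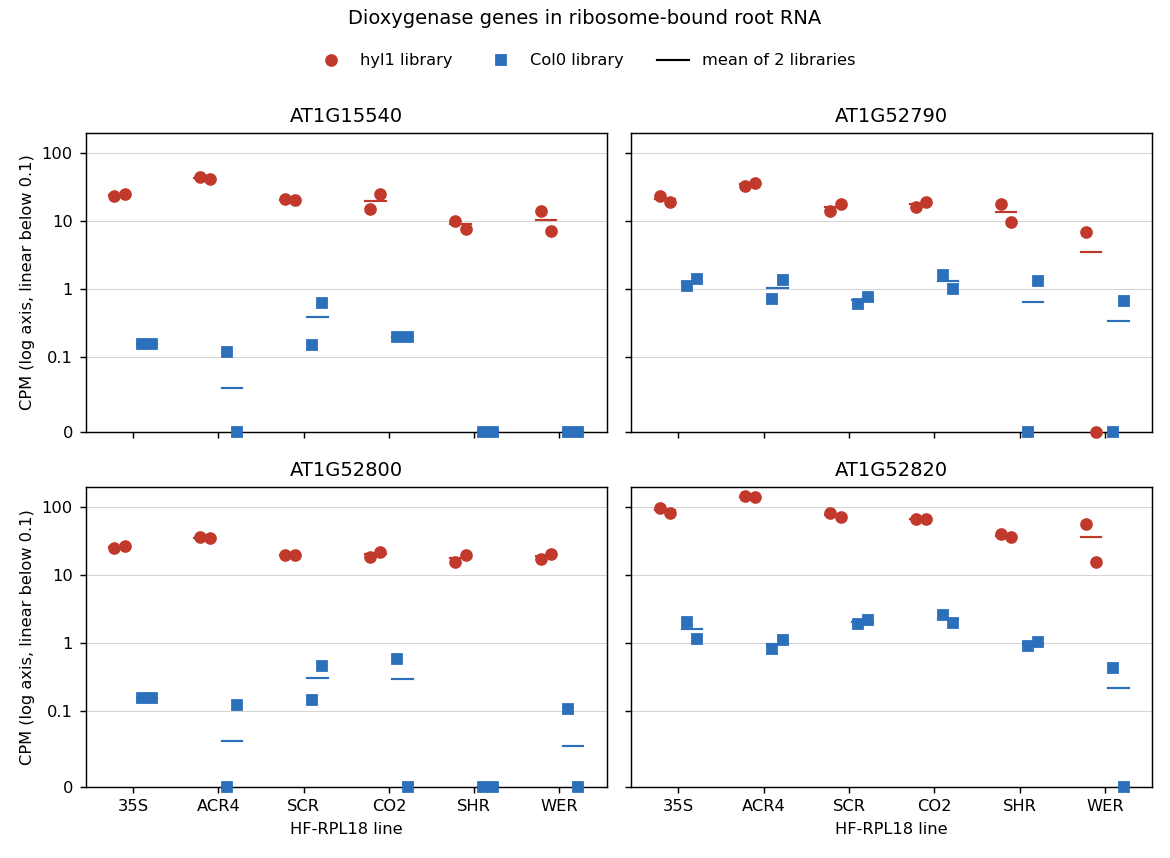
CPM of the 4 dioxygenase genes (log axis, linear below 0.1) in each hyl1 library (red circles) and Col0 library (blue squares) of the 6 lines, with a bar at the mean of 2 libraries. Every hyl1 library lies above every Col0 library except for AT1G52790 in hyl1 WER replicate 2, which had no count.

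Per kilobase of exon, the median level in hyl1 was 51.7 CPM for AT1G52820, 19.0 for AT1G52790, 16.5 for AT1G52800 and 14.3 for AT1G15540. The medians per kilobase in Col0 were 0.839 CPM for AT1G52820, 0.949 for AT1G52790, 0.0933 for AT1G52800 and 0.0927 for AT1G15540. In Col0 the genes thus fell into a pair with a small but countable level and a pair close to 0. The order of the Col0 levels was not that of the hyl1 levels, since AT1G52790 stood beside AT1G52820 in Col0 and beside AT1G52800 and AT1G15540 in hyl1.

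All 12 hyl1 libraries stood above all 12 Col0 libraries for 25 of the 23219 tested genes (0.108%), of which AT1G15540, AT1G52800 and AT1G52820 are 3. Since the genes were chosen for this contrast, nothing is read from their count. With every Col0 library also at 1 CPM or less, 4 genes were left (0.0172%), which were AT1G15540, AT1G52800, CYP93D1 (AT5G06900) and MIR156c (AT4G31877). CYP93D1, a cytochrome P450 gene, had a median of 6.75 CPM in hyl1 and 0.101 CPM in Col0. MIR156c, a locus that gives rise to a microRNA of the miR156 family, had medians of 5.32 CPM in hyl1 and 0.137 CPM in Col0. Both stood below AT1G15540 and AT1G52800 in hyl1 by median CPM, which is not corrected for length. Nothing is read from that order, since AT1G15540 and AT1G52800 were chosen by their raised counts in hyl1. The limit of 1 CPM is a setting, and a gene with a highest Col0 library of 1.10 CPM fell outside it. Its medians were 15.8 CPM in hyl1 and 0.327 CPM in Col0.

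The hyl1 level was above the Col0 level in each of the 6 lines for all 4 genes. For AT1G52820 the pooled ratio was 61.8 in the 35S line, 149 in ACR4, 37.7 in SCR, 29.6 in CO2, 38.9 in SHR and 188 in WER. For AT1G52790 it was 16.1 in the 35S line, 33.8 in ACR4, 23.6 in SCR, 13.6 in CO2, 19.4 in SHR and 8.94 in WER. For AT1G15540 and AT1G52800 each Col0 group held 0 to 5 counts, so their ratios within lines have wide intervals. AT1G15540 was at least 21.1-fold higher in hyl1 SHR and at least 72.7-fold higher in hyl1 WER, against a floor of 3 counts over the 2 Col0 libraries. AT1G52800 was at least 41.9-fold higher in hyl1 SHR by the same floor. Differences of the hyl1 effect between lines were not tested.

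Among the hyl1 libraries, the genes differed in how far their level depended on the layer line. These contrasts were not used to choose the genes. The F test over the 5 hyl1 layer lines passed for AT1G15540 (adjusted p = 0.00370) and AT1G52820 (adjusted p = 0.00506), whose line means spanned 2.26 and 1.98 on the log2 scale. It did not pass for AT1G52790 (adjusted p = 0.122, span 3.31) or AT1G52800 (adjusted p = 0.264, span 1.02), by edgeR in each case. The same test passed for 9133 genes, 39.3% of those tested, so 2 of 4 genes is near the background. Without the WER line it passed for 37.9% of the genes tested there and for all 4, at edgeR adjusted p = 2.09e-04 (AT1G15540), 0.0166 (AT1G52790), 0.0387 (AT1G52800) and 7.91e-06 (AT1G52820).

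All 4 genes had their highest hyl1 mean in the ACR4 line, and both ACR4 libraries stood above every other hyl1 library. AT1G15540 averaged 42.7 ± 1.5 CPM in hyl1 ACR4 (SD, n = 2), and its mean over the other 4 hyl1 layer lines was 14.9 CPM. That difference was 1.61 on the log2 scale (SE 0.31, edgeR adjusted p = 0.0114). AT1G52820 averaged 143 ± 3 CPM in hyl1 ACR4 (SD, n = 2) and 54.8 CPM in the other 4, a difference of 1.46 (SE 0.31, edgeR adjusted p = 0.0145). Genes called higher in hyl1 ACR4 made up 2.39% of those tested.

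AT1G52790 averaged 34.5 CPM in hyl1 ACR4 and 12.7 CPM in the other 4 hyl1 layer lines, which did not pass (difference 1.68, SE 0.67, edgeR adjusted p = 0.196). AT1G52800 averaged 36.0 CPM in hyl1 ACR4 and 19.3 CPM in the others, which did not pass either (difference 0.90, SE 0.34, edgeR adjusted p = 0.172). Without the WER line, where 3.07% of tested genes were called higher in hyl1 ACR4, both passed, at 1.13 (edgeR adjusted p = 0.0225) and 0.89 (0.0429). Within the run of library numbers of 35S, ACR4, SCR and CO2, the ACR4 differences from SCR and CO2 were 1.077 for AT1G15540 (edgeR adjusted p = 0.0132), 1.03 for AT1G52790 (0.0120), 0.98 for AT1G52820 (0.00371) and 0.83 for AT1G52800 (0.0661), with 2.83% of tested genes called higher there.

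The ACR4 calls of AT1G15540 and AT1G52820 were lost in the fits that left out hyl1 ACR4 replicate 1 (edgeR adjusted p = 0.178 and 0.194) or replicate 2 (0.172 and 0.195), with differences of 1.45 to 1.65. With 1 ACR4 library left, that library is assumed to vary like the other groups. The 10 genes with the largest excess of mean CPM in the layer lines over the 35S lines, a group chosen after values were seen, took 33.4% and 37.0% of counts in hyl1 ACR4 and 8.27% and 9.14% in Col0 ACR4. In hyl1 they took 31.7% and 31.0% in CO2, 30.5% and 24.7% in WER, 21.0% and 20.3% in SHR, and 8.52% and 8.26% in SCR. Their part in the ACR4 result was not tested. The markers of columella and root cap, the layer named for ACR4, did not stand together in hyl1 ACR4. CR4 (AT3G59420), the ACR4 receptor kinase gene itself, averaged 1102 CPM in hyl1 ACR4 and at most 5.83 CPM in any other hyl1 line, and it averaged 168 CPM in Col0 ACR4. The other 4 markers (SMB, BRN1, BRN2 and CEL5) summed to 48.1 CPM in hyl1 ACR4, below the 178 CPM of hyl1 35S, and to 383 CPM in Col0 ACR4. The part of this in the ACR4 result was not tested.

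In Col0 the ACR4 line was not the highest for any of the 4 genes. AT1G52820 averaged 0.962 CPM in Col0 ACR4, and its highest Col0 mean was 2.29 ± 0.41 CPM in CO2 (SD, n = 2). AT1G52790 averaged 1.03 CPM in Col0 ACR4 and 1.29 ± 0.42 CPM in Col0 CO2 (SD, n = 2). AT1G15540 and AT1G52800 were highest in Col0 SCR, at 0.383 and 0.306 CPM, on 4 to 5 counts per line. The order of the Col0 lines rests on few counts and was not tested.

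The lower end of the hyl1 levels lay in the SHR and WER lines. AT1G15540 averaged 8.89 ± 1.71 CPM in hyl1 SHR and 10.4 ± 4.8 CPM in hyl1 WER (SD, n = 2 each). The SHR difference from the other hyl1 layer lines was −1.21 (SE 0.39, edgeR adjusted p = 0.0556), and the WER difference was −0.93 (SE 0.37, edgeR adjusted p = 0.0576). Neither passed with all lines (3.86% of tested genes were called lower in hyl1 SHR), and without the WER line the SHR difference of AT1G15540 was −1.54 and passed (edgeR adjusted p = 8.05e-04), as a lower call did for 8.89% of tested genes. AT1G52820 gave −0.91 in hyl1 SHR (SE 0.37, edgeR adjusted p = 0.123), and −1.24 without the WER line, where it passed (edgeR adjusted p = 6.55e-05).

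In hyl1 WER, AT1G52820 was lower than in the other hyl1 layer lines (difference −1.01, SE 0.36, edgeR adjusted p = 0.0353). AT1G52790 was also lower there (−2.45, SE 0.89, edgeR adjusted p = 0.0376). The background for a lower call in hyl1 WER was 20% of tested genes. Without hyl1 WER replicate 2, AT1G52820 was at −0.36 and no longer called (edgeR adjusted p = 0.336), while AT1G52790 was at −1.44 and stayed called (edgeR adjusted p = 0.0447). The AT1G52790 call was lost in 6 other fits that left out 1 library, hyl1 ACR4 replicate 1 or 2, SCR replicate 2, CO2 replicate 1 or 2, or SHR replicate 1 (edgeR adjusted p = 0.0506 to 0.0589). The AT1G52820 call was also lost without hyl1 ACR4 replicate 1 or 2, SCR replicate 1 or SHR replicate 1 (edgeR adjusted p = 0.0509 to 0.0537). AT1G52800 was not called in WER, at −0.25 (SE 0.36, edgeR adjusted p = 0.614).

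In the SCR and CO2 lines of hyl1 none of the 4 genes passed against the other hyl1 layer lines, where 21.5% and 5.8% of tested genes were called in either direction. Nor was any called between the hyl1 35S line and the mean of the 5 hyl1 layer lines, where 18.9% were called. The 35S differences were 0.26 (AT1G52800) to 0.64 (AT1G52790) on the log2 scale. By line mean, 35S ranked second in hyl1 for all 4 genes. Behind it, SCR and CO2 differed by less than the larger SD of the pair for AT1G15540, AT1G52790 and AT1G52800. SHR and WER did so for AT1G15540, AT1G52800 and AT1G52820.

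**Figure D2:**
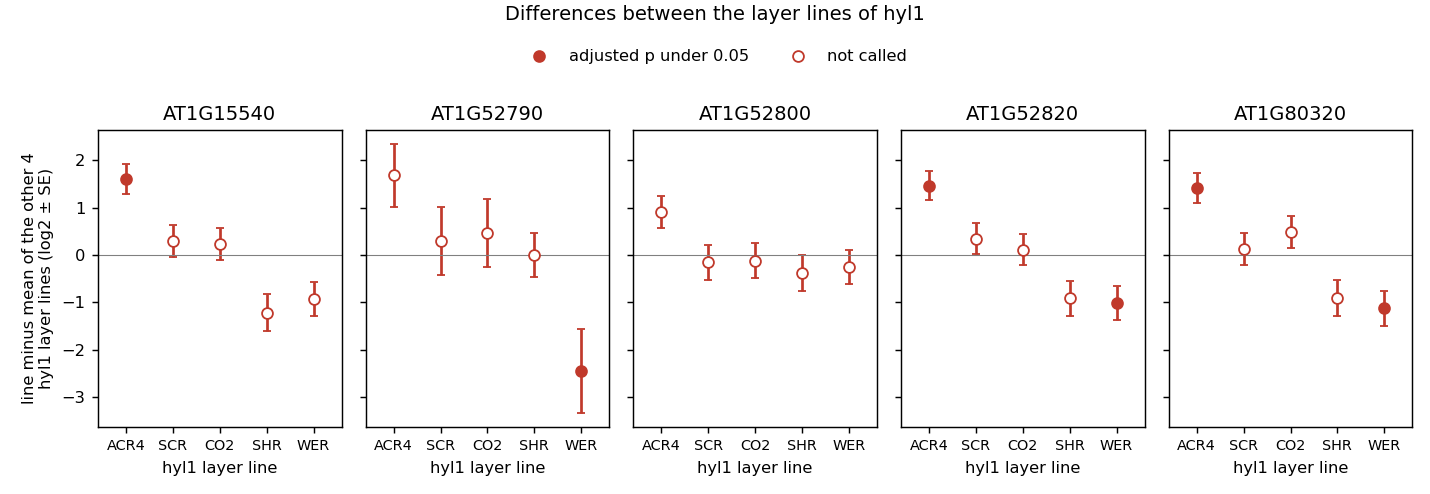
Log2 difference of each hyl1 layer line from the mean of the other 4 hyl1 layer lines (± SE) for the 4 dioxygenase genes and AT1G80320, with filled points at an edgeR adjusted p under 0.05. ACR4 is the highest point in every panel, and the points of AT1G52800 lie closest to 0.

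The counts of AT1G52820 and AT1G15540 relative to AT1G52800 were alike in 4 of the 6 hyl1 lines and lower in SHR and in hyl1 WER replicate 2. For each count of AT1G52800, there were 3.07 to 4.11 counts of AT1G52820 in the 35S, ACR4, SCR and CO2 libraries. In SHR there were 2.55 and 1.84, and in WER 3.32 and 0.751. AT1G15540 had 0.806 to 1.21 counts for each count of AT1G52800 in the same 4 lines, 0.638 and 0.391 in SHR, and 0.809 and 0.338 in WER. In hyl1 WER replicate 2 the counts of AT1G52820, AT1G15540 and AT1G52790 were all low for those of AT1G52800.

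Across the 12 hyl1 libraries, which share lines and depth differences, AT1G15540 and AT1G52820 had a Pearson r of 0.937 on log2 CPM (Spearman rho 0.944), and r was 0.950 without the 2 libraries farthest from the median of AT1G15540. AT1G52820 was the tested gene most like AT1G15540 by r, with other genes close behind. AT1G09740 had r = 0.936 and fell in hyl1 (log2 fold change −0.56, edgeR adjusted p = 6.18e-04). AT1G76220 had r = 0.932 (Spearman rho 0.951) and was not called between the genotypes (−0.71, edgeR adjusted p = 0.190). AT1G15540 was not among the 5 genes most like AT1G52820. AT1G52790 and AT1G52800 had r = 0.365, which became 0.804 without hyl1 WER replicate 2. It was 0.108 without the 2 hyl1 ACR4 libraries, those farthest from the median of AT1G52800. Without those ACR4 libraries, the r of AT1G52800 was 0.562 with AT1G15540 (0.794 with all 12) and 0.368 with AT1G52820 (0.661 with all 12). The 5 genes most like AT1G52820 were AT1G80325 (r = 0.972), AT1G80320 (0.970), XF1 (AT1G58440, 0.956), CAX2 (AT3G13320, 0.944) and MIOX1 (AT1G14520, 0.943). The first of the 5 most like AT1G52800 were AT5G20050 (0.931) and the P450 gene CYP712A1 (0.921). For AT1G52790, all of the 5 (r = 0.977 to 0.985) dropped to 0.633 to 0.804 without the 2 farthest libraries, so that ranking rests on those. These values are a description of 12 libraries, with no test.

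None of the tested genes on either side was called higher in hyl1. Of the 25 genes within 6 places of the 4 genes along the chromosome, 18 had enough counts to be tested, 0 rose and 2 fell (edgeR adjusted p under 0.05), against 7.84% of all tested genes that rose and 12% that fell. At an unadjusted p under 0.05 the counts were also 0 and 2, as they were with DESeq2. The median log2 fold change of the 18 was −0.19, and that of all tested genes was −0.07. GA3OX1 (AT1G15550), which makes active gibberellin, lies 511 bases from AT1G15540 and fell by 0.79 on the log2 scale (SE 0.26, edgeR adjusted p = 0.0414). AT1G52750 fell by 0.46 (SE 0.14, edgeR adjusted p = 0.0296). Both calls were weak, since they were lost in 17 and 13 of the 24 fits that left out 1 library. GA3OX1 had a median of 3.01 CPM in hyl1 and 6.08 CPM in Col0.

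Within the cluster, AT1G52790 and AT1G52800 lie head to head, on opposite strands, with 721 bases between them. AT1G52780, 7 bases from AT1G52790, had medians of 24.9 CPM in hyl1 and 28.4 CPM in Col0 (log2 fold change −0.22, SE 0.13, edgeR adjusted p = 0.255). AT1G52810, the dioxygenase-like gene between AT1G52800 and AT1G52820, had 34 counts in hyl1 and 30 counts in Col0, too few to test. AT1G52825 shares 33 bases with AT1G52820 on the opposite strand, and the use of strand in counting is not given in the sources used here. It had 480 counts in hyl1 and 389 counts in Col0 and did not pass (log2 fold change 0.68, SE 0.36, edgeR adjusted p = 0.212).

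**Figure D3:**
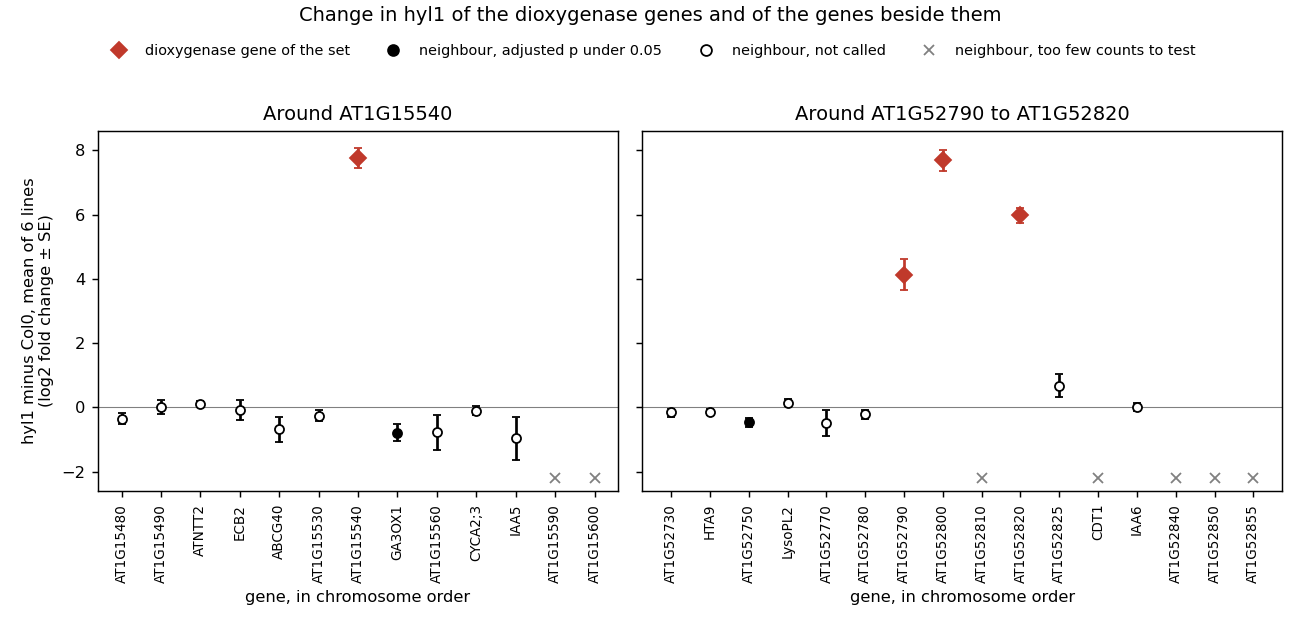
Mean log2 fold change of hyl1 minus Col0 over 6 lines (± SE) for the 4 dioxygenase genes (red diamonds) and the genes up to 6 places away, in chromosome order, with crosses for genes with too few counts. The 4 genes lie between 4.13 and 7.75, and tested neighbours between −0.96 and 0.68.

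The 250 bases before the annotated start of AT1G52800 and of AT1G52820 are shown because their counts were raised in hyl1, while AT1G52810 between them had few counts in either genotype. The models of AT1G15540 and AT1G52790 are marked as partial in RefSeq, so their windows are not shown. Capitals mark a TATAAA or CCAAT match, and letters run 5′ to 3′ on the gene's strand.

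AT1G52800, chr1:19663773-19664022 (+): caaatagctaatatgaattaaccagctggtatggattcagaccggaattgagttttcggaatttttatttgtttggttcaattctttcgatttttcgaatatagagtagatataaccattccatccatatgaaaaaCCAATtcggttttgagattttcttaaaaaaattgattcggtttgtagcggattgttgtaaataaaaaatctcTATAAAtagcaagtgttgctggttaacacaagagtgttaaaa
AT1G52820, chr1:19668755-19669004 (+): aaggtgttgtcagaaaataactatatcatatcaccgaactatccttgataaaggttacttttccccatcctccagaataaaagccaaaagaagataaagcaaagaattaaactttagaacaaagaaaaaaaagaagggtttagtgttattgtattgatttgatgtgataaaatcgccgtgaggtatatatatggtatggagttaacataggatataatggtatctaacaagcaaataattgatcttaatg

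Both windows had a GC content of 30.4%. In all, 8 motifs were searched on both strands, with overlapping matches allowed. The AT1G52800 window held TATAAA and CCAAT once each, which 48% and 47.2% of 20981 promoter windows of the same length also hold. The AT1G52820 window held neither. Neither window held TAACAAA (16.4% of all windows), GGNCCC (7.81%), GTAC (34.6%), CACGTG (7.28%), TTGAC (45.5%) or TGTCTC (10.6%). A match or its lack describes these letters and nothing more.

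Of the 10 Arabidopsis proteins nearest to the 4 by BLAST score, the genes of 5 were tested and 2 rose, AT1G80320 and AT4G23340. Over the same mean of the 6 lines, 7.84% of all tested genes rose. AT1G80320, a dioxygenase gene on chromosome 1 that is closest to AT1G15540 (53.4% identity by BLAST), rose with a log2 fold change of 2.60 (SE 0.20, edgeR adjusted p = 6.31e-08). Its hyl1 libraries ran from 5.80 to 56.6 CPM with a median of 29.2, and its Col0 libraries from 1.72 to 9.12 CPM with a median of 4.18. The hyl1 mean was higher in 6 of 6 lines, and the groups overlapped only through hyl1 WER replicate 2. The rise passed within the 35S (4.13), ACR4 (3.86), SCR (1.82, edgeR adjusted p = 0.0474) and WER (2.40) lines, and not within CO2 (2.04, edgeR adjusted p = 0.135) or SHR (1.32, edgeR adjusted p = 0.715). The SCR call was lost in 18 of the 24 fits that left out 1 library, with upper quartile scaling (edgeR adjusted p = 0.0533) and in the fit of the 4 SCR libraries alone (0.105). The WER call was lost in the fit of its own 4 libraries (edgeR adjusted p = 0.259), and the 35S call without Col0 35S replicate 2 (0.0766). CO2 was called by DESeq2 (adjusted p = 0.00509), in the fit of its own 4 libraries (edgeR adjusted p = 0.0253) and without hyl1 WER replicate 1 (0.00171) or replicate 2 (0.00136). A higher call in hyl1 was given to 0.0904% of tested genes in 35S, 6.29% in ACR4, 0.53% in SCR, 0.0861% in CO2, 0.0775% in SHR and 15.8% in WER.

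AT1G80320, like AT1G15540 and AT1G52820, was called higher in hyl1 ACR4. It averaged 55.0 CPM in hyl1 ACR4 and 22.0 CPM in the other 4 hyl1 layer lines (log2 difference 1.42, SE 0.32, edgeR adjusted p = 0.0191), a call lost without hyl1 ACR4 replicate 1 (edgeR adjusted p = 0.193) or replicate 2 (0.250). It shares 1115 bases with AT1G80325, a lncRNA on the opposite strand. The counts of the pair differed by at most 11 in any of the 24 libraries and were equal in 5, so reads of the 2 loci cannot be told apart here. Unlike AT1G15540 and AT1G52800, AT1G80320 was countable in every Col0 library.

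AT4G23340, 28.3% identical to AT1G52820, had medians of 2.22 CPM in hyl1 and 0.948 CPM in Col0 (log2 fold change 1.05, SE 0.33, edgeR adjusted p = 0.0305), and lost its call in 14 of the 24 fits that left out 1 library. AOP1 (AT4G03070), the nearest of all to AT1G52820 at 62.6%, had medians of 3.15 CPM in hyl1 and 2.09 CPM in Col0 and did not pass (0.11, SE 0.43, edgeR adjusted p = 0.900). AT5G51310 (−0.63, edgeR adjusted p = 0.343) and AT1G14120 (−0.24, edgeR adjusted p = 0.249) did not pass either. AT1G28030, AT1G52810, AOP3, GA20OX1 and GA20OX2 had too few counts to test, with 11 to 38 counts in hyl1 and 9 to 51 in Col0.

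**Figure D4:**
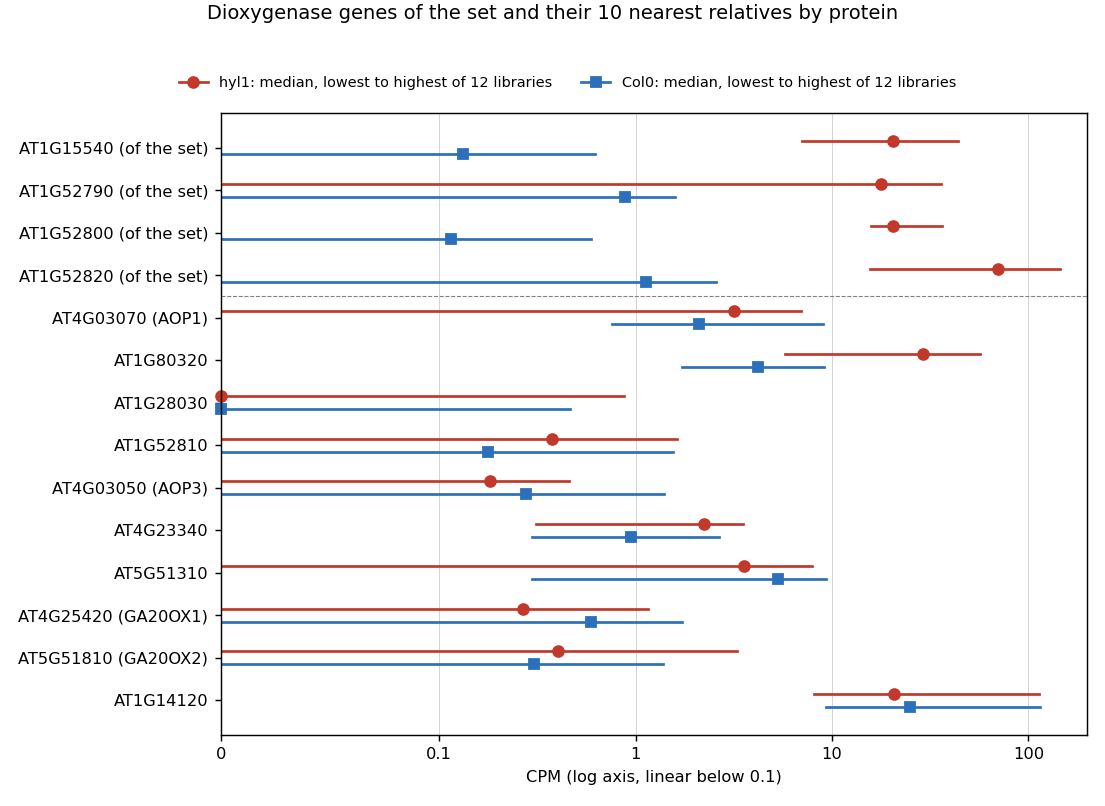
Median CPM (points) and lowest to highest of 12 libraries (lines) in hyl1 (red) and Col0 (blue) for the 4 dioxygenase genes and the 10 genes whose proteins are nearest to them, on a log axis that is linear below 0.1. Among the relatives, AT1G80320 has medians of 29.2 CPM in hyl1 and 4.18 CPM in Col0, and those of AOP1 are 3.15 and 2.09.

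Other dioxygenases of known role were called in both directions. In 4 lists of such enzymes, with 40 genes, 28 were tested, 3 rose and 8 fell over the mean of the 6 lines, and their median log2 fold change was −0.12 (−0.07 over all tested genes). These shares stand beside 7.84% of all tested genes that rose and 12% that fell. The highest of the 28 log2 fold changes was 0.89, and those of the 4 chosen genes were 4.13 to 7.75. Since the 4 genes were chosen by this contrast, nothing is read from that gap.

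Among 16 gibberellin dioxygenases, 9 were tested, 0 rose and 2 fell (edgeR), and 1 was higher at an unadjusted p under 0.05. Those that fell were GA3OX1 and GA2OX3, an enzyme that removes active gibberellin, with 25 counts in hyl1 and 74 counts in Col0. GA2OX3 fell by 2.32 on the log2 scale (SE 0.76, edgeR adjusted p = 0.0422) and lost its call in 15 of 24 fits that left out 1 library. Of the 3 AOP genes, AOP1 and AOP2 were tested and neither passed by edgeR, also at an unadjusted p under 0.05.

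Among 14 other hormone dioxygenases, 11 were tested, 2 rose and 4 fell. Of the ACC oxidases named here, which make ethylene, ACO3 rose by 0.82 (edgeR adjusted p = 0.0315), while ACO4 fell by 0.79 (0.00680) and ACO5 by 1.05 (1.82e-05). ACO3 lost its call in 14 of 24 fits that left out 1 library and without the WER line (0.45, edgeR adjusted p = 0.287). DMR6, a salicylic acid hydroxylase, had medians of 9.83 CPM in hyl1 and 21.7 CPM in Col0 and fell by 1.11 (edgeR adjusted p = 0.00122).

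Among 7 dioxygenases of specialised metabolism, 6 were tested, 1 rose and 2 fell. GSL-OH, which hydroxylates an aliphatic glucosinolate, rose by 0.86 (SE 0.11, edgeR adjusted p = 3.41e-05), with medians of 215 CPM in hyl1 and 120.1 CPM in Col0. F6'H1 fell by 0.97 (edgeR adjusted p = 1.33e-04) and S8H fell by 1.22 (edgeR adjusted p = 0.0163), both enzymes of coumarin synthesis. S8H lost its call without the WER line (−0.80, edgeR adjusted p = 0.107) and within the 35S, ACR4, SCR and CO2 lines alone (−0.87, 0.126).

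Markers of shoot photosynthesis also differed between the genotypes in these root libraries. Of 6 such genes, 4 rose in hyl1 (RBCS1A, LHCB1.3, PSAF and GAPA1), beside 7.84% of all tested genes, and their summed level was 22.2 to 87.3 CPM in hyl1 (median 64.1) and 6.50 to 31.4 CPM in Col0 (median 17.1). By line, the mean sum in hyl1 was 64.8 CPM in ACR4, 69.9 in 35S, 66.0 in CO2, 59.5 in WER, 38.6 in SCR and 24.1 in SHR. The part of these markers in the rise of the 4 dioxygenase genes was not tested.

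Markers of the root layers moved with the genotype as well, against the same background of 7.84% higher and 12% lower. Of 7 endodermis markers 4 rose in hyl1, among them CASP1, ESB1 and MYB36, and 0 fell, and the median log2 fold change of the 7 was 1.09. Their mean sum in ACR4 was 141 CPM in hyl1 and 34.4 CPM in Col0. In 35S it was 130 CPM in hyl1 and 129 CPM in Col0, and in SHR 83.7 and 75.6 CPM. The sums in hyl1 and Col0 were 1512 and 1002 CPM in SCR, 281 and 121 in CO2, and 147 and 39.3 in WER. The Col0 SCR libraries differed widely, at 1625 CPM in replicate 1 and 380 CPM in replicate 2. Those of hyl1 SCR held 1595 and 1429 CPM, so the higher SCR mean of hyl1 rests on Col0 SCR replicate 2. Of 6 stele markers 3 rose (APL, TMO5 and PHB) and 1 fell (WOL), with the highest log2 fold change in PHB (1.34). A marker gene can itself respond to the genotype, so these calls do not show the share of a layer. Of 6 epidermis and root hair markers 0 rose and 2 fell (GL2 and RSL4), of 5 columella and root cap markers 0 rose and 1 fell (CEL5), and of 2 cortex markers neither was called. The cortex markers were close to 0 also in the line named for that layer, with a mean sum of 2.06 CPM in hyl1 CO2 and 3.48 CPM in Col0 CO2. The part of the layer markers in the values of the 4 dioxygenase genes was not tested.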

How the data were processed

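The authors deposited 1 table of raw read counts for 33602 genes and 24 libraries. Per the submitters' processing notes the authors used TAIR10, featureCounts of Subread, TopHat2 2.0.11 with Bowtie2 2.2.1.0, and CASAVA 1.8.2. Strand use is not given in the sources used here, nor is the handling of reads with several matches. Counts were tested with edgeR 4.0.16 (R 4.3.3) by the quasi-likelihood F test, with 12 groups, TMM scaling, filterByExpr (minimum count 10, minimum total 15) and Benjamini-Hochberg adjustment over 23219 genes, and called at 0.05. CPM use the TMM-scaled library size, and floors use 3 counts. Counting intervals and floors do not cover variation between plants. Gene positions and sequences came from RefSeq's TAIR10.1 genome and annotation, which held 97.7% of the identifiers, while the counts were made on TAIR10, and the genes were joined by identifier. Proteins were compared with BLAST 2.17.0 and aligned with MAFFT 7.526.

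The members and lists were chosen with earlier results of these data known. The text names HYL1, the 4 genes, their neighbours up to 6 places away, the 10 nearest proteins, up to 4 called genes per list or its 2 most expressed genes if it had none, the 5 genes most like each member over the 12 hyl1 libraries, and genes at 1 CPM or less in every Col0 library that every hyl1 library exceeds, or the first of these. On simulated counts with 2-fold and 4-fold changes, the mean contrast recovered 83% and 100% (22179 genes), and the ACR4 contrast 4% and 69% (22176 genes). The changes were given to well-counted genes only, with 1 spread shared by all genes and equal starting means in all groups. These rates thus do not cover genes with few counts or a wider spread. Alternatives were other scalings, DESeq2 1.42.0, other filters, a replicate block, subsets of lines and each library left out. The values of some genes of the lists are not reported here.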

Additional observations from a re-analysis of the deposited data

How the results depend on the processing

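With DESeq2 size factors in the edgeR test, no reported call or direction changed. The pooled ratios of hyl1 to Col0 stayed within their counting intervals under both other scalings, without the WER line, in the 35S, ACR4, SCR and CO2 lines alone, and in each fit that left out 1 library. Differences below are log2, for a hyl1 layer line minus the other hyl1 layer lines, and the cause of the changes was not tested. Upper quartile scaling called 0 neighbours and called AT1G15540 lower in WER (−0.98). The DESeq2 test called 68 genes in the 35S line, 780 in SCR, 131 in CO2 and 85 in SHR for hyl1 minus Col0, against 23, 440, 34 and 19 by edgeR, and 1307 between ACR4 and the other lines, against 723. It also called AT1G52800 between layers (span 1.03) and in ACR4 (0.90), and AT1G15540 in SHR (−1.22) and WER (−0.95). With no filter beyond 1 count, 0 neighbours were called, AT1G52820 in WER was no longer called (−0.86), and the SHR value of AT1G52790, 0.0015 with all settings as reported, became −0.086. That value was −0.0077 with a filter of 1 CPM in 2 libraries.

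Without the WER line, 2738 genes were called over the mean of the lines, against 4607, with 3711 in CO2 and 4489 in SHR between layers, against 1346 and 2555. AT1G52790 and AT1G52800 were then called between layers (spans 1.33 and 1.01) and in ACR4 (1.13 and 0.89), and AT1G15540 (−1.54) and AT1G52820 (−1.24) in SHR. Uncalled values turned negative for AT1G52790 in SCR (−0.34), CO2 (−0.15) and SHR (−0.65), for AT1G52820 in CO2 (−0.14) and for AT1G80320 in SCR (−0.17). Within the run of library numbers of 35S, ACR4, SCR and CO2, 4306 genes were called in CO2, and AT1G52790 and AT1G52800 were called between layers (spans 1.11 and 0.85), AT1G52790 also in ACR4 (1.03). Directions turned for SCR in AT1G15540 (−0.51), AT1G52790 (−0.63), AT1G52820 (−0.36) and AT1G80320 (−0.67, called), and for CO2 in AT1G15540 (−0.56), AT1G52790 (−0.41), AT1G52820 (−0.62, called) and AT1G80320 (−0.22). The 35S values of AT1G15540 (−0.030) and AT1G80320 (−0.076) also turned there. That fit sets a line against fewer lines, with ACR4 among them.

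Fits of the 4 libraries of a line called 500 genes in 35S, 7847 in ACR4, 1 in SCR, 90 in CO2, 38 in SHR and 258 in WER for hyl1 minus Col0, against 3415 in ACR4 and 9069 in WER with a shared spread. The fit of the 12 hyl1 libraries called AT1G52800 between layers (span 1.01) and in ACR4 (0.90) and AT1G15540 in SHR (−1.21) and WER (−0.93), and lost AT1G52790 (−2.45) and AT1G52820 (−1.01) in WER. Same-numbered hyl1 and Col0 libraries had deviations correlated at r = −0.088 to 0.070, and same-numbered hyl1 layer libraries at −0.037 to 0.019. No pairing by number was seen, but with 1 difference per group these values cannot exclude it. A replicate block within each line called 1 nearest relative, and 9 genes in 35S, 267 in SCR, 11 in CO2 and 7 in SHR. A replicate block between hyl1 layers left the SHR value of AT1G52790 at −0.0019.

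Leaving out 1 library at a time gave 0 to 4 called neighbours and 1 to 3 called relatives. Called genes for hyl1 minus Col0 ranged from 3687 to 9487 for the mean, 10 to 54 in 35S, 1530 to 5553 in ACR4, 135 to 983 in SCR, 9 to 111 in CO2, 3 to 78 in SHR and 7208 to 14378 in WER. Between hyl1 layers they ranged from 7106 to 15813 for any difference, 77 to 5093 for ACR4, 2098 to 9551 for SCR, 290 to 5338 for CO2, 626 to 6416 for SHR, 8003 to 14148 for WER and 1566 to 8737 for 35S. Each of these highest counts but that of SCR in hyl1 minus Col0 came without hyl1 WER replicate 1, which leaves the replicate that stands apart alone in its group. ACR4 differences ranged from 1.52 to 1.76 (AT1G15540), 1.44 to 3.57 (AT1G52790), 0.86 to 0.95 (AT1G52800) and 1.31 to 1.77 (AT1G52820). For AT1G15540, CO2 ranged from −0.16 to 0.55, SHR from −1.46 to −1.04 and WER from −1.50 to −0.51. For AT1G52790, the span ranged from 2.31 to 10.86, SCR from 0.062 to 2.19, CO2 from 0.22 to 2.36, SHR from −0.51 to 1.88, WER from −10.00 to −1.44 and 35S from 0.51 to 2.15. For AT1G52820, SCR ranged from 0.20 to 0.66, CO2 from −0.045 to 0.42, SHR from −1.10 to −0.61, WER from −2.23 to −0.36 and 35S from 0.39 to 0.77. For AT1G80320, SCR ranged from −0.029 to 0.43. Depth limits what Col0 can show, since 0 counts in a Col0 library allow 0.234 to 0.919 CPM.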
